A study of Mus musculus with 8 samples.

Results

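The transcripts described here are those of Igf1, the gene of insulin-like growth factor 1, and of the IGF binding protein genes Igfbp1 to Igfbp7. These 8 of the 31053 genes in the count matrix were picked by symbol, with their levels in these cells already known, so their levels by cell type are given as a description without a test. The counts were unique molecular identifiers (UMIs), each standing for 1 captured transcript, in 3192 single cells from the livers of 8 C57BL/6 mice that the labels call male. 4 mice were given a high fat, high cholesterol diet (HFHC, so named in the design text, although the titles read calorie for cholesterol) and 4 a control diet of chow. No transgene or other treatment is named for either group; the mice are given as 6 to 8 weeks old and were fed for 20 to 32 weeks, 1 library per mouse. Nonparenchymal cells had been isolated, freed of dead cells and sorted after staining with antibodies to CD45, CD31, CD146 and PDPN, and the labels call the product stromal. The question behind the diet comparison, as far as the series title gives it, concerns how oxidised low density lipoprotein affects the lymphatic vessels of the liver.

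In the body, IGF1 is secreted mainly by the liver in answer to growth hormone, which acts on hepatocytes through its receptor and the kinase JAK2. IGF1 acts on the receptor IGF1R, and nearly all of it in blood is held by binding proteins that prolong its life and limit its access to the receptor. The binding proteins differ in the cells that make them: IGFBP1 and IGFBP2 are known as hepatocyte products that respond to feeding, IGFBP3 and IGFBP5 form long-lived complexes with IGF1 and the protein encoded by Igfals, and IGFBP7, which binds IGF1 weakly, is deposited in the basement membrane of blood vessels. Proteases such as PAPP-A and HTRA1 cut some of them and release the growth factor.

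The 8 genes lie on 5 chromosomes, and 4 of them form neighbouring pairs whose 3′ ends face each other. Igfbp1 (chromosome 11, 7197782 to 7202546, plus strand, mm10) ended 3539 bases from the end of Igfbp3 (chromosome 11, 7206086 to 7213923, minus strand). Igfbp2 (chromosome 1, 72824503 to 72852474, plus strand) ended 5457 bases from the end of Igfbp5 (chromosome 1, 72857932 to 72874884, minus strand). In these cells 23 of 24 Igfbp1 UMIs and 70 of 77 Igfbp2 UMIs were in hepatocytes, which held 0 of 55 Igfbp3 UMIs and 6 of 1515 Igfbp5 UMIs. There were 1357 hepatocytes and 36 mesothelial cells, and 5 more Igfbp2 UMIs were in the mesothelial cells, where Igfbp5 was also found. Igf1 (chromosome 10, 87858265 to 87937042, plus strand), Igfbp4 (chromosome 11, 99041244 to 99054392, plus strand), Igfbp6 (chromosome 15, 102144362 to 102149511, plus strand) and Igfbp7 (chromosome 5, 77349240 to 77408041, minus strand) stand apart from these pairs.

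The promoters of both pairs are shown so that the start of each neighbour can be compared, and that of Igfbp7 because it gave the most UMIs of the 8 genes. Each run holds the 250 bases before the transcript start, 5′ to 3′ on the strand of the gene, from RefSeq on GRCm38.p6. The positions are chr11:7197537-7197786 (plus strand) for Igfbp1, chr11:7213924-7214173 (minus) for Igfbp3, chr1:72824230-72824479 (plus) for the first of 2 listed Igfbp2 starts, chr1:72874866-72875115 (minus) for Igfbp5 and chr5:77408046-77408295 (minus) for Igfbp7. Capitals mark matches, on either strand, to 7 short motifs. These were the TATA box (TATAAA) near which transcription starts and a half-site of the motif bound by HNF1 factors of hepatocytes (GTTAAT). Also among them was the motif bound by forkhead factors (TGTTTAC). The other 4 were the GC box bound by Sp1 (GGGCGG), the AP-1 motif (TGANTCA), the E-box (CACGTG), and the core of the insulin response sequence known from human IGFBP1 (CAAAACA).
Igfbp1: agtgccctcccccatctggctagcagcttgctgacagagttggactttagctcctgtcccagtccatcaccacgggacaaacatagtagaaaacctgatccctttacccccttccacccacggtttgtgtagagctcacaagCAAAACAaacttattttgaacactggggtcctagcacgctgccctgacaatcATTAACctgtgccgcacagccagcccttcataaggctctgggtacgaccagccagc
Igfbp3: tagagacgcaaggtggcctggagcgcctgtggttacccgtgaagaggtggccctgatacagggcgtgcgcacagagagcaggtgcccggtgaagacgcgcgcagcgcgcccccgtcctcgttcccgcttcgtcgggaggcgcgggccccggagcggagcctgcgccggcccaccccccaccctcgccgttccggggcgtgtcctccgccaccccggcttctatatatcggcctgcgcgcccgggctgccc
Igfbp2: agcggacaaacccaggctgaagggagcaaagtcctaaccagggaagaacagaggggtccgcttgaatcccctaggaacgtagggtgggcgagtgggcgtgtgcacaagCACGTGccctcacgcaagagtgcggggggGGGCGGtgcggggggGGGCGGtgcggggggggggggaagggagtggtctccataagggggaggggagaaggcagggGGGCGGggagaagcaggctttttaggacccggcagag
Igfbp5: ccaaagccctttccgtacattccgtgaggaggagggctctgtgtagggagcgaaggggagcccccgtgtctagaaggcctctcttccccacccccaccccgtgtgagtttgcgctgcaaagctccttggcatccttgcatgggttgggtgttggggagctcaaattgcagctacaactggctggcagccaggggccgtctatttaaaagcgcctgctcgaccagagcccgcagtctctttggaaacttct
Igfbp7: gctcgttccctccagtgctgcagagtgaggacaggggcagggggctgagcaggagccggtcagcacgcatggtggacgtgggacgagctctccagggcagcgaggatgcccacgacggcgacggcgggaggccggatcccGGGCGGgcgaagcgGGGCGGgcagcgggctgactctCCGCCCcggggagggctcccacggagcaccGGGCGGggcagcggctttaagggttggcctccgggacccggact

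The Igfbp1 promoter held 1 match to the HNF1 half-site, starting 56 bases before the transcript start, and 1 to the insulin response core, starting 108 bases before it. Of the 32851 mouse promoters of the same length in the table, 6.43% held the HNF1 half-site and 5.56% the insulin response core. The Igfbp7 promoter held 4 GC boxes and that of Igfbp2 held 3 with 1 E-box, against 32.7% of all promoters with at least 1 GC box and 6.02% with an E-box. No letters of these 7 motifs were found in the windows of Igfbp3 and Igfbp5. The Igfbp3 window was 73.2% G or C with 32 CG pairs and the Igfbp7 window 74% with 26 CG pairs, while Igfbp1 had 53.2% and 5, close to the medians of 52.4% and 6 over all promoters. Igfbp4, not printed, had 1 TATA box starting 28 bases before its start (12.4% of all promoters). Matches are letters in a window and do not show that a factor was bound.

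All levels below are CPM, the share of a gene in the UMIs of the summed cells scaled to 1000000, with exact Poisson 95% intervals that cover counting error only. The libraries differed widely: they held 47 to 875 cells and 170448 to 2309209 UMIs, with medians of 1364 to 5928 UMIs per cell. HFHC 1, HFHC 2, HFHC 3, control 1 and control 2 shared 33 to 65 cell barcodes in each pair, other pairs at most 4, and each barcode was kept only where it had most UMIs. Control 4 went against its label in a sex-linked gene: 67 of its 94 cells had Xist and 0 a Y-linked transcript, while no cell of the other libraries had Xist. Results that rest on the library labelled control 4 are given with and without it.

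Cells were placed in gates by marker genes that include no member of the set. The endothelial gate took 1311 cells (41.1%), the hepatocyte gate 1357 (42.5%) and the mesothelial gate 36 (1.13%), with 1657, 1520 and 6729 median UMIs per cell. All 12 endothelial markers (such as Pecam1 and Cdh5) were found in at least 10% of the endothelial cells, all 12 hepatocyte markers (such as Cps1) in at least 10% of the hepatocyte cells, and all 10 mesothelial markers (such as Msln and Upk3b) in 44.4 to 94.4% of the mesothelial cells. Hepatocytes are thus a large share of cells that the labels call stromal. The mesothelial gate was not clean of other types: 35 of its 36 cells had Dcn, a fibroblast marker, 5 of 10 fibroblast markers were found in at least 10% of them and summed to 9189 CPM, while Pdgfra, Pdgfrb, Lrat and Dpt were at 0 there. Of the endothelial markers 9 of 12 were found in at least 10% of these cells (589 CPM summed), of the macrophage markers 8 of 10 (769 CPM) and of the cholangiocyte markers 5 of 10 (2585 CPM). Their part in the mesothelial levels of the members was not tested.

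The gates were spread unevenly over mice. HFHC libraries 1 to 4 had 3, 0, 10 and 579 endothelial cells, against 18, 89, 537 and 75 in control libraries 1 to 4. Hepatocytes numbered 682 in HFHC 3 and 0 in the other HFHC libraries, against 671 in control 2 and at most 3 in the other control libraries. Mesothelial cells numbered 12, 3, 1 and 0 in HFHC libraries 1 to 4, against 14, 4, 0 and 2 in control libraries 1 to 4. Levels by gate are given for libraries with at least 10 cells, which left 6 libraries for endothelial cells and 1 per diet for hepatocytes and for mesothelial cells.

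**Figure D1:**
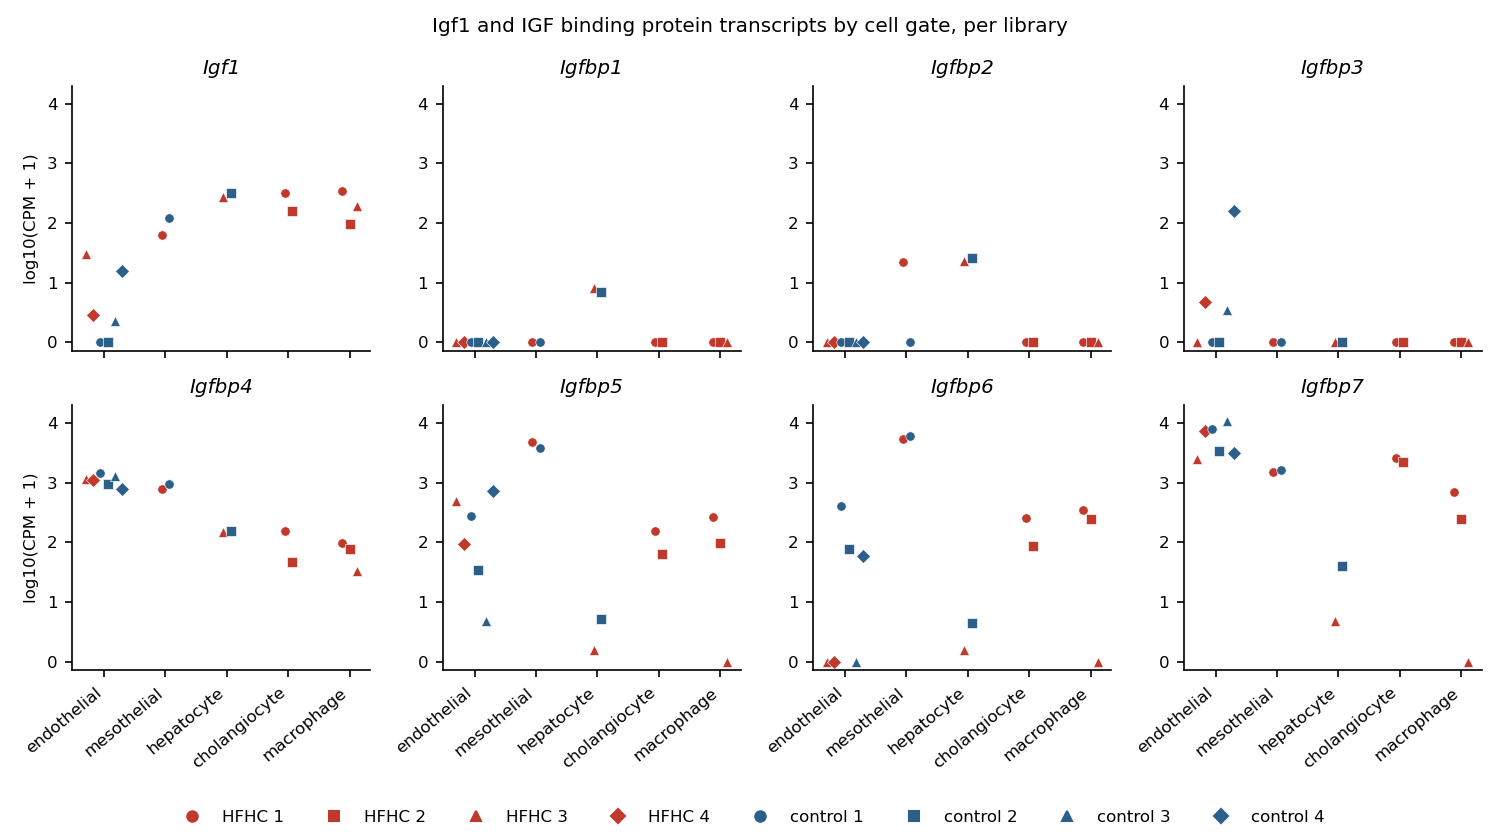
CPM of each gene, as log10(CPM + 1), in the sums of endothelial, mesothelial, hepatocyte, cholangiocyte and macrophage gates with at least 10 cells; each point is 1 library, red for HFHC and blue for control. Igfbp1 lies above 0 in hepatocytes alone among these gates, Igfbp5 and Igfbp6 have their highest points in mesothelial cells and Igfbp7 in endothelial cells.

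Igf1, the ligand, was found mainly in hepatocytes. Hepatocytes held 83.0% of its 1068 UMIs, and its level there was 271 CPM in HFHC 3 (505 UMIs in 682 cells) and 321 CPM in control 2 (381 UMIs in 671 cells). Of the 1357 hepatocytes, 541 (39.9%) had at least 1 Igf1 UMI. When each cell was thinned to 1000 UMIs the share was 25.3%. Endothelial cells lay far below, at 29.3 and 1.89 CPM in HFHC 3 and HFHC 4, against 0, 0, 1.24 and 14.5 CPM in control libraries 1 to 4, which together were 7 UMIs.

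Igf1 was also found in cells that are not hepatocytes. In HFHC 1, which had 0 hepatocytes, Igf1 stood at 343 CPM in macrophages (28 UMIs, in 8 of 16 cells) and 315 CPM in cholangiocytes (27 UMIs, in 8 of 11 cells), while mesothelial cells of the same library had 62.3 CPM (6 UMIs). The 12 hepatocyte markers summed to 172 and 81.6 CPM in those macrophages and cholangiocytes, against 25595 CPM in the hepatocytes of HFHC 3. Alb, which is not among those markers, had 674 and 746 CPM in them, against 2609 CPM in the hepatocytes of HFHC 3. Alb was higher still in the 5 cholangiocytes of HFHC 3 (7899 CPM). In control 2 it had 10534 CPM in 3 cholangiocytes and 5621 CPM in hepatocytes, so it does not mark hepatocytes alone here. Cholangiocytes of HFHC 2 had 1782 CPM of Alb. The macrophages of HFHC 1 also had mesothelial markers at 576 CPM and endothelial markers at 564 CPM. Thinned to 1000 UMIs per cell, Igf1 was found in 27.0% of the macrophages, 21.6% of the cholangiocytes and 9.84% of the mesothelial cells of HFHC 1. The part of RNA from other cells in these levels was not tested. In HFHC 2 the levels were 95.1 CPM in macrophages (5 UMIs) and 158 CPM in cholangiocytes (35 UMIs), and macrophages of HFHC 3 had 194 CPM (6 UMIs) with hepatocyte markers at 1391 CPM.

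Lower levels were found in blood cells of HFHC 3: its T and NK cells had 33.8 CPM of Igf1 (6 UMIs) beside hepatocyte markers at 1821 CPM. Its B cells had 57.0 CPM (2 UMIs) and its basophils and mast cells 30.0 CPM (2 UMIs). Set in order by pooled level, hepatocytes (290 CPM, interval 271 to 310), fibroblasts (265 CPM, 137 to 463, 12 UMIs), macrophages (240 CPM, 172 to 326) and cholangiocytes (182 CPM, 143 to 228) came first, and mesothelial cells followed (80.1 CPM, 49.0 to 124). The intervals of hepatocytes, fibroblasts and macrophages overlap, so their order was not resolved at this depth. That of cholangiocytes overlaps those of fibroblasts and macrophages, so its place beside them was not resolved either. It lies below that of hepatocytes when pooled, although cholangiocytes of HFHC 1 had 315 CPM.

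The hepatocyte binding proteins were sparse. Igfbp1, which insulin keeps low and fasting raises, had 13 UMIs in the hepatocytes of HFHC 3 (6.97 CPM) and 7 in those of control 2 (5.91 CPM). Igfbp2, which responds to leptin in mice, had 41 UMIs in HFHC 3 (22.0 CPM) and 29 in control 2 (24.5 CPM). Neither gene had a UMI in the 1311 endothelial cells, where a count of 0 allows up to 1.24 CPM. Igfbp2 had 5 UMIs in the 36 mesothelial cells (20.0 CPM, interval 6.51 to 46.8), an interval that takes in the pooled hepatocyte level of 22.9 CPM.

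Igfbp4, which binds IGF1 until PAPP-A cuts it, was the one member found above 100 CPM in all 3 main gates. In hepatocytes it stood at 148 CPM in HFHC 3 (276 UMIs) and 155 CPM in control 2 (184 UMIs). It was found in 28.3% of those cells in HFHC 3 and 21.2% in control 2. Blood cells of the same libraries are set beside these shares. HFHC 3 had Igfbp4 in 7.69% of 65 T and NK cells, 16% of 25 basophils and mast cells and 0% of 15 B cells. Its 17 neutrophils had 1 Igfbp4 UMI. Control 2 had Igfbp4 in 2.63% of 38 B cells and 22.2% of 9 T and NK cells. Its 16 basophils and mast cells had 0 Igfbp4 UMIs. Thinned to 1000 UMIs per cell, the shares in HFHC 3 were 13.9% of hepatocytes, 2.33% of T and NK cells and 5.82% of basophils and mast cells. In control 2 they were 14.8% of hepatocytes, 1.48% of B cells and 12.2% of T and NK cells. The last share rests on 2 of 9 cells, fewer than the 10 cells asked of a gate. Against those T and NK cells the hepatocyte share of control 2 was not resolved. The part of RNA from other cells in these shares was not tested. Set beside Igfbp7, HFHC 3 had 276 Igfbp4 and 7 Igfbp7 UMIs in hepatocytes, against 39 and 85 in its endothelial cells, and control 2 had 184 and 46 in hepatocytes, against 227 and 812 in its endothelial cells.

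Endothelial cells held 90.4% of the 20395 Igfbp7 UMIs and 73.8% of the 3730 Igfbp4 UMIs. Igfbp7, a protein of the vessel basement membrane, had 2488 and 7278 CPM in endothelial cells of HFHC 3 and HFHC 4, against 8082, 3437, 10729 and 3223 CPM in control libraries 1 to 4. Igfbp4 had 1141 and 1114 CPM in HFHC 3 and HFHC 4, against 1475, 961, 1294 and 780 CPM in control libraries 1 to 4. The values of both genes in HFHC libraries lay inside the control range or beyond its edge by less than the control libraries differed among themselves. Over the 6 libraries the mean was 5873 ± 3312 CPM for Igfbp7 and 1128 ± 244 CPM for Igfbp4 (SD, n = 6). Of the endothelial cells, 98.3% in HFHC 4 and 98.5% in control 3 had an Igfbp7 UMI, against 1.03% of hepatocytes in HFHC 3 and 6.11% in control 2. Thinned to 1000 UMIs per cell, the shares were 98.5, 99.8, 0.434 and 3.71% in the same order.

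Igfbp7 was found outside the endothelium too. Cholangiocytes had 2657 CPM in HFHC 1 and 2247 CPM in HFHC 2, mesothelial cells had 1547 CPM in HFHC 1 and 1622 CPM in control 1, and the 9 fibroblasts had 3973 CPM together (interval 3414 to 4598). Macrophages were lower, with 711, 247 and 0 CPM in HFHC 1, HFHC 2 and HFHC 3. Pooled intervals of endothelial cells (7542 to 7764 CPM), fibroblasts, cholangiocytes (2002 to 2289 CPM) and mesothelial cells (1526 to 1852 CPM) do not overlap. They hold no spread between mice. The range over endothelial libraries, from 2488 CPM in HFHC 3, takes in the fibroblast level and that of cholangiocytes in HFHC 1.

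Within the endothelium 4 members, Igfbp3, Igfbp4, Igfbp5 and Igfbp7, were compared between the vessel types, which had been told apart by markers such as Stab2 and Clec4g (sinusoidal), Vwf and Sox17 (vascular) and Prox1 and Mmrn1 (lymphatic). Igfbp7 in sinusoidal cells stood at 7795 CPM in HFHC 4 and at 8035, 4933, 10921 and 7154 CPM in control libraries 1 to 4. In vascular cells it was lower in both libraries that had at least 10 of them, at 2868 CPM in HFHC 4 and 1265 CPM in control 2. The ratio of vascular to sinusoidal cells within a library was 0.368 (exact conditional 95% interval 0.320 to 0.421) in HFHC 4 and 0.256 (0.205 to 0.317) in control 2. Igfbp4 had 987 CPM in vascular and 1133 CPM in sinusoidal cells of HFHC 4, and 671 and 1191 CPM in those of control 2, under a 2-fold difference in both. At least 2-fold lower levels in vascular cells were found for 19.3% of the genes with at least 20 UMIs in HFHC 4 and 10.8% in control 2.

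The lymphatic subgate was filled in the library labelled control 4 alone, with 31 cells. There Igfbp7 had 659 CPM in lymphatic cells (74 UMIs), against 7154 CPM in sinusoidal cells of the same library (580 UMIs), a ratio of 0.0921 (0.0713 to 0.117). Igfbp4 had 427 CPM in lymphatic and 1369 CPM in sinusoidal cells, a ratio of 0.312 (0.218 to 0.442). The opposite held for Igfbp5, with 1265 CPM in lymphatic cells (142 UMIs in 18 cells, at most 40 in a cell). Sinusoidal cells had 136 CPM of Igfbp5 (11 UMIs in 3 cells, 9 of these UMIs in 1 cell). The Igfbp5 ratio was 9.32 (5.05 to 19.1), and its interval, which takes UMIs as independent, is too narrow. Igfbp3, which in rat liver is known from nonparenchymal cells, had 267 CPM in lymphatic cells (30 UMIs in 9 cells) and 24.7 CPM in sinusoidal cells (2 UMIs in 1 cell), a ratio of 10.8 (2.75 to 93.5).

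In that comparison all 4 of these members, the ones with at least 20 UMIs, passed a 2-fold difference, where 20.6% of the genes with at least 20 UMIs were at least 2-fold higher in lymphatic cells and 19.8% at least 2-fold lower. All of it comes from 1 animal whose sex-linked transcripts go against its label, and no other library can repeat it. The Igfbp3 of the endothelium rests on the same library: without control 4 the 5 other libraries had 0 and 3.79 CPM in HFHC 3 and HFHC 4, against 0, 0 and 2.48 CPM in control libraries 1 to 3, a total of 6 UMIs.

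**Figure D2:**
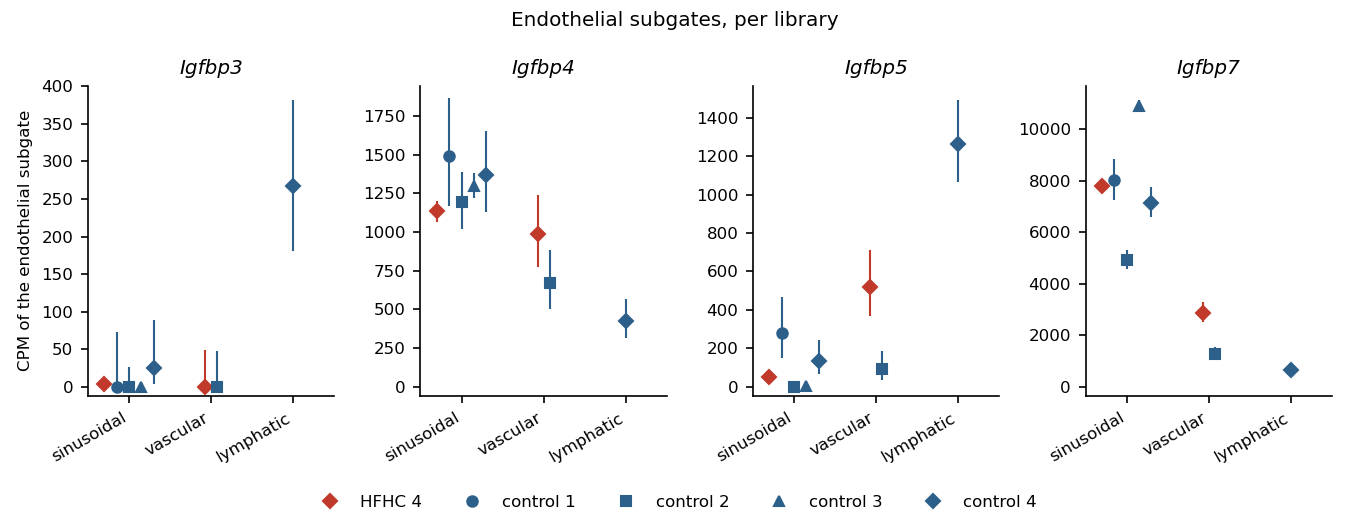
CPM of Igfbp3, Igfbp4, Igfbp5 and Igfbp7 in sinusoidal, vascular and lymphatic endothelial subgates, 1 point per library with at least 10 cells (red HFHC, blue control), with exact Poisson 95% intervals. Igfbp7 lies at 4933 to 10921 CPM in sinusoidal cells, at 2868 and 1265 CPM in vascular cells and at 659 CPM in lymphatic cells, while Igfbp3 and Igfbp5 have their highest points in lymphatic cells.

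Igfbp5, which is known to bind matrix as well as IGF1, had a higher level in vascular than in sinusoidal cells of HFHC 4, in few cells of either. The vascular cells had 520 CPM (39 UMIs in 9 of 35 cells, 19 of them in 1 cell). The sinusoidal cells had 48.6 CPM (46 UMIs in 13 of 523 cells), a ratio of 10.7 (6.80 to 16.8). This interval takes UMIs as independent and is too narrow. At least 2-fold higher levels in vascular cells were found for 12.9% of genes there. In control 2, 7 UMIs were in vascular cells (90.4 CPM) and 0 in sinusoidal cells, where a count of 0 allows up to 21.0 CPM. Sinusoidal cells of HFHC 4 that had Esm1, a proteoglycan gene with a domain like that of the binding proteins, had 0 Igfbp5 UMIs in 128 cells (at most 9.97 CPM). The 395 cells without Esm1 had 46 (71.3 CPM), all in 13 cells. With UMIs in so few cells, the limit, which takes UMIs as independent, is too low, and the difference was not tested. Igfbp4 and Igfbp7 were alike in both sets of cells, with 1103 and 7627 CPM in cells with Esm1 and 1147 and 7874 CPM in cells without.

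Mesothelial cells, the lining of the liver surface, were the main place of Igfbp5 and Igfbp6, with 72.7% of 1515 and 84.5% of 1650 UMIs in 36 cells. Igfbp6, which prefers IGF2 to IGF1, had 5366 CPM in HFHC 1 (517 UMIs) and 6212 CPM in control 1 (471 UMIs). Igfbp5 had 4889 CPM in HFHC 1 (471 UMIs) and 3878 CPM in control 1 (294 UMIs). Cell by cell, Igfbp6 was found in 36 of 36 cells, at 1.64 to 12.9 UMIs per 1000 with a median of 5.28. Igfbp6 UMIs were also in 9 of 11 cholangiocytes and 12 of 16 macrophages of HFHC 1 and in 10 of 18 endothelial cells of control 1. Whether those cells expressed Igfbp6 or held its RNA from other cells was not tested. Thinned to 1000 UMIs per cell, the share with Igfbp6 was 96.0% of mesothelial cells, 23.7% of cholangiocytes and 33.9% of macrophages in HFHC 1, and 99.3% of mesothelial and 40.7% of endothelial cells in control 1. Igfbp5 was found in 30 of the 36, at 0 to 10.1 UMIs per 1000 with a median of 3.06. The 6 cells without Igfbp5 all had Igfbp6.

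**Figure D3:**
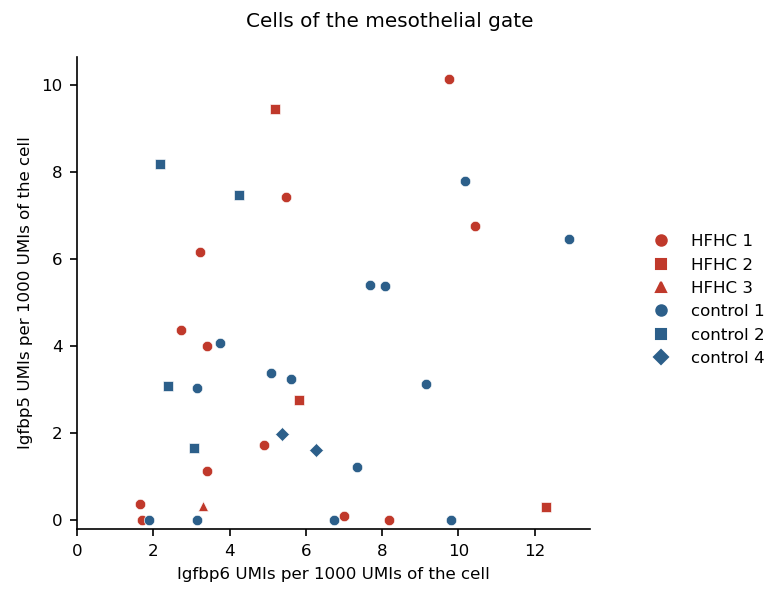
Igfbp5 against Igfbp6 in each of the 36 cells of the mesothelial gate, both as UMIs per 1000 UMIs of the cell, coloured by diet (red HFHC, blue control) with 1 symbol per library. Every cell lies to the right of 0 on the Igfbp6 axis, from 1.64 to 12.9, while 6 cells lie at 0 for Igfbp5.

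Small amounts of both were found in other cells of the libraries that had mesothelial cells. In HFHC 1, Igfbp5 and Igfbp6 had 151 and 256 CPM in cholangiocytes and 270 and 343 CPM in macrophages. The number of Igfbp5 UMIs per Igfbp6 UMI in HFHC 1 was 0.911 in mesothelial cells, 0.591 in cholangiocytes, 0.786 in macrophages and 0.4 in ungated cells. In HFHC 2 it was 0.668 in mesothelial cells, 0.737 in cholangiocytes and 0.385 in macrophages. In control 1 it was 0.624 in mesothelial and 0.667 in endothelial cells, which also had mesothelial markers at 767 CPM and fibroblast markers at 885 CPM. In control 2 it was 1.77 in mesothelial and 0.444 in endothelial cells. The part of free RNA in these levels was not tested. In control 4 endothelial cells had 12.75 Igfbp5 UMIs per Igfbp6 UMI (153 and 12) and the 2 mesothelial cells 0.310 (18 and 58). Single cells weighed on the rest of the endothelial Igfbp6: 17 of 18 UMIs in control 2 and 11 of 12 in control 4 came from 1 cell each.

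The genes whose levels ran most like those of the members were sought over 21 sums of a library and a gate, which share libraries and differ in depth, by Pearson's r of log2(CPM + 10). For Igfbp3 they were Ccl21a (r = 0.986), Mmrn1 (0.969) and Reln (0.925), which are lymphatic markers of the gates. This rests on the endothelial sum of the library labelled control 4: over the 20 sums without it r was 0.020, −0.15 and −0.0086, while for the other members r moved little. For Igfbp7 they were Sparc (0.951), Tm4sf1 (0.936) and Tinagl1 (0.934), and for Igfbp4 they were Esam (0.928), Ltbp4 (0.915) and Slc43a3 (0.911), Esam and Ltbp4 being gate markers. Igfbp6 ran most like Dcn (0.946), Nkain4 (0.933) and Upk3b (0.927), all gate markers, and Igfbp5 most like Cavin3 (0.951), Prss23 (0.943) and Fmo2 (0.935). Igf1 ran with the epithelial keratins Krt18 (0.832) and Krt8 (0.823) and with Echdc2 (0.821), and Igfbp2 with Hdhd3 (0.839), Pklr (0.824) and Cyp2c50 (0.820), while Igfbp1 had too few UMIs.

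Other genes of the axis were counted in the same gates, from lists of receptors and ligands, of the circulating complex and its proteases, of the growth hormone axis, of signal transduction and of other proteins with an IGFBP-type domain. Ghr, the growth hormone receptor, followed Igf1 in hepatocytes, at 253 CPM in HFHC 3 and 286 CPM in control 2, against 21.6 CPM in endothelial cells pooled. Igf1r, the receptor of IGF1, had 3.21 CPM in hepatocytes of HFHC 3 (6 UMIs) and 15.2 CPM in those of control 2 (18 UMIs), and all 24 hepatocyte UMIs were in 5 of the 1357 cells. Endothelial cells pooled had 56.8 CPM (interval 47.7 to 67.2) and cholangiocytes 108 CPM (78.4 to 145), so the Igf1r intervals of the 3 types do not overlap. Insr, the insulin receptor, had 6 UMIs in all hepatocytes (1.96 CPM) and 145 in endothelial cells (60.2 CPM).

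Of the other listed genes with most UMIs, Igf2 had 0 UMIs in any cell and Igf2r, a receptor that clears IGF2, had 43. Htra1, a protease that cuts IGFBP5 among other proteins, had 322 CPM in mesothelial cells of HFHC 1 (31 UMIs) and 119 CPM in those of control 1 (9 UMIs), against 29 UMIs in the 1311 endothelial cells. Igfals, which encodes the third protein of the circulating complex, had 26 UMIs in all. Hepatocytes had 13 of them (4.25 CPM pooled, interval 2.26 to 7.27). The 65 cholangiocytes had 10 in 7 cells, at a higher pooled level of 24.5 CPM (11.8 to 45.1). Stc1 and Stc2, inhibitors of PAPP-A, had 17 and 10 UMIs, of which 17 and 9 were in endothelial cells. Grb14, an adaptor that inhibits the insulin receptor, was mainly in hepatocytes (78.8 CPM pooled, against 2.49 CPM in endothelial cells), and Socs2, a growth hormone target that limits its signal, had 412 CPM in cholangiocytes pooled, against 17.7 CPM in hepatocytes.

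Diet was compared over all cells summed, over endothelial cells and over sinusoidal cells, with edgeR fitted to all genes, and no member passed. Over all cells, Igfbp7 had 2049, 1781, 71.5 and 7229 CPM in HFHC libraries 1 to 4, against 3778, 592, 10529 and 2895 CPM in control libraries 1 to 4. Igfbp4 had 437, 262, 153 and 1105 CPM in HFHC libraries 1 to 4, against 1021, 318, 1270 and 657 CPM in control libraries 1 to 4. Igf1 had 224, 129, 230 and 2.78 CPM in HFHC libraries 1 to 4, against 106, 222, 4.78 and 38.9 CPM in control libraries 1 to 4. The groups overlap for each of these genes. The libraries with least Igf1, HFHC 4 and control 3, had 0 hepatocytes and the most endothelial cells, and they also had the most Igfbp7.

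Igfbp5 over all cells had 1684, 567, 8.66 and 91.8 CPM in HFHC libraries 1 to 4, against 1889, 110, 3.59 and 711 CPM in control libraries 1 to 4. Igfbp6 had 1911, 895, 9.53 and 0 CPM in HFHC libraries 1 to 4, against 3110, 88.4, 0 and 295 CPM in control libraries 1 to 4. Their highest libraries in either diet, HFHC 1 and control 1, were those with 12 and 14 mesothelial cells among 47 and 55. With such makeup, diet and cell composition cannot be told apart in sums of all cells. The log2 fold changes of HFHC over control by edgeR were 0.59 for Igf1 (SE 1.28), −0.70 for Igfbp4 (SE 0.61), −0.20 for Igfbp5 (SE 1.60), −0.32 for Igfbp6 (SE 2.17) and −0.64 for Igfbp7 (SE 1.08), with a Benjamini-Hochberg adjusted p of 0.999 for each.

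Of the 8 members, 5 had counts enough to be tested over all cells and 0 passed, beside 0 of 6666 genes (0%). At an unadjusted p under 0.05 there were 54 genes, none of them a member, and DESeq2 called 0. Igfbp1, Igfbp2 and Igfbp3 were too low to be tested. Igfbp2 had 6.58, 6.30, 18.6 and 0 CPM in HFHC libraries 1 to 4, against 0, 16.9, 0 and 0 CPM in control libraries 1 to 4. For 0 of the 8 members did the CPM of the diet groups stand apart, where this held for 0.645% of the genes tested.

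In the endothelial gate, 4 members were tested and 0 passed, beside 2 of 4238 genes (0.0472%). Between HFHC 3 and HFHC 4 and the 4 control libraries, edgeR gave log2 fold changes of 0.01 for Igfbp4 (SE 0.33), −0.17 for Igfbp5 (SE 2.23) and −0.33 for Igfbp7 (SE 0.63), each with an adjusted p of 0.999. Igfbp5 had 498 CPM in HFHC 3 (17 UMIs, 15 of them in 1 cell) and 92.8 CPM in HFHC 4, against 275, 33.9, 3.72 and 742 CPM in control libraries 1 to 4. Vessel types within the gate differed by library. In control 4, 142 of the 153 Igfbp5 UMIs were in its 31 lymphatic cells, and HFHC 3 had 4 sinusoidal and 5 vascular cells. The part of vessel makeup in the levels of this gate by diet was not tested. Igfbp6 had 0 UMIs in HFHC 3 and HFHC 4, against 413, 76.2, 0 and 58.2 CPM in control libraries 1 to 4, and did not pass (edgeR adjusted p = 0.999). Without control 4 the log2 fold changes were −0.16 for Igfbp4, 2.01 for Igfbp5 and −0.56 for Igfbp7, and without HFHC 3, which has 10 endothelial cells, they were 0.11, −1.36 and 0.31, with 0 of these passing. The CPM of the diet groups stood apart for 0 of the 8 members, beside 13% of the genes tested.

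**Figure D4:**
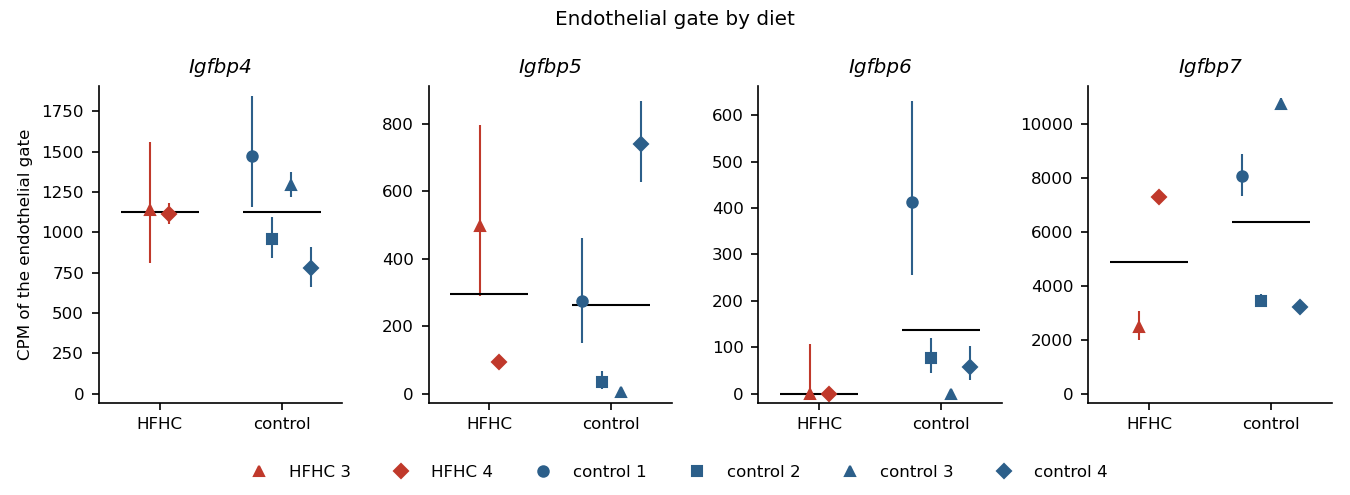
CPM of Igfbp4, Igfbp5, Igfbp6 and Igfbp7 in the endothelial gate, HFHC at left and control at right, 1 point per library with its exact Poisson 95% interval and a line at the mean of each diet. The HFHC points lie among the control points for Igfbp4 and Igfbp5, at 0 for Igfbp6 as does control 3, and 1 of them lies below the control range for Igfbp7.

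Among sinusoidal cells, where HFHC 4 is the single HFHC library, 4 members were tested and 0 passed, beside 12 of 3907 genes (0.307%). Igfbp4 had 1133 CPM in HFHC 4, against 1488, 1191, 1296 and 1369 CPM in control libraries 1 to 4, so HFHC 4 lay below each control library. By edgeR this was a log2 difference of −0.10 (SE 0.40, adjusted p = 1.00), and the diet groups stood apart for 27.4% of the genes tested. Igf1, with 2 UMIs in HFHC 4 (2.11 CPM) and at most 1 in a control library (1.27 CPM), also stood apart, on 3 UMIs in all. Igfbp7 had a log2 fold change of 0.14 (SE 0.43) and the same adjusted p by edgeR. No spread among HFHC mice enters this comparison.

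The deepest pair of sinusoidal libraries, HFHC 4 and control 3, can be set side by side as 2 libraries, with intervals that hold no spread between mice. Igfbp7 was lower in HFHC 4, at 0.714 times the level of control 3 (0.692 to 0.736), and so was Igfbp4, at 0.874 times (0.801 to 0.953). Igfbp5 was higher, with 46 UMIs in 13 cells of HFHC 4 and 2 in 1 cell of control 3, a ratio of 19.1 (4.998 to 163). This interval takes UMIs as independent and is too narrow. Of these 3 members Igfbp5 passed a 2-fold difference, as did 10.2% of the genes with at least 20 UMIs. The control libraries 1 and 4 had more sinusoidal Igfbp5 than HFHC 4, at 278 CPM (14 UMIs in 6 of 17 cells) and 136 CPM (11 UMIs, 9 of them in 1 cell). The Igfbp5 ratio therefore does not hold against these libraries as counted. The 17 cells of control 1 also had 417 CPM of Igfbp6 (21 UMIs), while sinusoidal cells of HFHC 4 and control 3 had 0 UMIs. Endothelial cells of control 1 had mesothelial markers at 767 CPM and fibroblast markers at 885 CPM. The part of RNA from other cells in its Igfbp5 was not tested. Between vascular cells of HFHC 4 and control 2, Igfbp5 had a ratio of 5.76 (2.55 to 15.3) and Igfbp7 of 2.27 (1.78 to 2.91). Both were past 2-fold, as were 14.8% of such genes, and Igfbp4 had a ratio of 1.47 (1.02 to 2.14). The Igfbp5 interval is again too narrow, with 19 of the 39 UMIs of HFHC 4 in 1 cell.

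In hepatocytes 1 library per diet could be compared, HFHC 3 against control 2, without a test. Igf1 in HFHC 3 was at 0.842 times the level of control 2 (0.735 to 0.964), Igfbp4 at 0.953 times (0.788 to 1.15), Igfbp2 at 0.898 times (0.545 to 1.498) and Igfbp1 at 1.18 times (0.437 to 3.49). The last 3 intervals take in 1, and the Igfbp1 interval would hide a 2-fold change in either direction. Igfbp7 was lower, at 3.75 CPM in HFHC 3 and 38.8 CPM in control 2, a ratio of 0.0966 (0.0368 to 0.216). Of the 5 members with at least 20 UMIs it alone passed a 2-fold difference, as did 15.7% of all such genes. The endothelial markers moved with it, at 29.5 CPM in these hepatocytes of HFHC 3 and 88.6 CPM in those of control 2, and their part in the Igfbp7 difference was not tested. In an edgeR fit with barcode copies kept, control 1 entered with 10 hepatocytes, 9 of them copies of barcodes with more UMIs in another library, at a median of 294 UMIs. In that fit Igfbp7 passed (log2 fold change −3.55, adjusted p = 9.83e-12), as did 6.59% of 7013 genes, with HFHC 3 as the only HFHC library and copied cells that are no independent mouse. Igf1, Igfbp2 and Igfbp4 did not pass in it.

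Of the other listed genes in hepatocytes, Grb14 was at 98.6 CPM in HFHC 3 and 48.1 CPM in control 2, a ratio of 2.05 (1.52 to 2.81), and Igf1r at 3.21 CPM in HFHC 3 and 15.2 CPM in control 2, a ratio of 0.212 (0.0688 to 0.557) that 5 cells carry, so the interval, which takes UMIs as independent, is too narrow. Ghr was at 0.886 times the control level (0.769 to 1.02). In mesothelial cells, HFHC 1 against control 1, Igfbp5 had a ratio of 1.26 (1.09 to 1.46), Igfbp6 of 0.864 (0.761 to 0.981), Igfbp4 of 0.842 (0.601 to 1.18) and Igfbp7 of 0.953 (0.746 to 1.22). None of these 4 members passed a 2-fold difference, which 14.3% of genes did, and each ratio rests on 12 and 14 cells. In HFHC 1, 1 cell held 135 of the 471 Igfbp5 UMIs and 130 of the 517 Igfbp6 UMIs. The intervals of these ratios take UMIs as independent, so they are too narrow and resolve no direction for either gene.

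Of the other lists, Esm1 alone passed the diet test. Of the receptors and ligands 2 of 4 genes could be tested in each of the 3 comparisons and 0 passed. Of the growth hormone axis 5 of 6 were tested over all cells and 0 passed; Socs2 had a log2 fold change of 2.30 (SE 0.82) and did not pass (edgeR adjusted p = 0.999). Of 12 genes of signal transduction 10 were tested over all cells and 7 in endothelial cells, and 0 passed. Of the proteins with an IGFBP-type domain 4 of 11 were tested in endothelial cells, and Esm1 passed by edgeR (log2 fold change 6.27, SE 0.59, adjusted p = 8.21e-05). Esm1 had 293 and 424 CPM in endothelial cells of HFHC 3 and HFHC 4, against 19.7, 4.23, 4.96 and 0 CPM in control libraries 1 to 4, so the groups do not overlap. Without HFHC 4, which leaves 10 endothelial cells of HFHC 3, it no longer passed (log2 fold change 5.53, edgeR adjusted p = 0.58). Median log2 fold changes in endothelial cells stood at 1.18 for the 4 tested genes with an IGFBP-type domain, 0.63 for the 1 of the growth hormone axis, 0.48 for the 2 receptors, 0.24 for the 7 of signal transduction and −0.25 for the 4 members, beside −0.05 over all genes tested there.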

How the data were processed

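Droplet libraries of the 10x Genomics platform were made from sorted liver cells of 8 mice, per the labels' protocols, 1 library per mouse. The values deposited are whole-number counts of UMIs for each gene in each cell, which the authors made with Cell Ranger 3.0.1 and Seurat on mm10, per the submitters' processing notes; chemistry, annotation and cell filters: not given in the sources used here. Of 3416 cells, 224 were barcode copies and were removed, a shared barcode staying only with the library that gave it the most UMIs. Whether a count is a read of 1 strand or end of a gene is not stated, so levels are not compared between genes other than as counts of 1 sum. Counts measure captured molecules, and intervals and limits (3 counts where 0 were seen) cover counting error only. No doublets were called.

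A cell went to the marker list of 10 with the highest share of markers detected, with at least 3 detected and no tie; endothelial subgates needed at least 2. The members, marker lists, pathway lists and tests were chosen with earlier results of these data known. UMIs were summed per library and gate with at least 10 cells and fitted over all genes with edgeR 4.0.16 in R 4.3.3 (TMM, filterByExpr, robust quasi-likelihood test, Benjamini-Hochberg adjustment, threshold 0.05). The p-values measure the spread between these libraries. With 1 library per diet, ratios carry exact conditional 95% intervals and no test, and a 2-fold difference is set beside the share of genes with at least 20 UMIs that show one. The test was also run on simulated counts with the library sizes and gene means of these sums. Those simulated libraries did not differ in cell makeup as the real ones do, so that run cannot speak for this spread.

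Named besides the members were listed genes that passed a test, up to 4 genes per list with most UMIs, and the 3 genes most alike to each member with at least 50 UMIs, among genes with at least 100 UMIs. The values of 1 gene of the signal transduction list are not reported here. Gene positions came from the GENCODE vM21 annotation and promoters from RefSeq (GRCm38.p6), where 8 of 8 members matched. Alternatives were no filter on low counts, DESeq2 1.42.0, edgeR with size factors of DESeq2, a replicate block, at least 4 markers or 5 cells, at least 500 genes per cell, classes from clustering (scanpy 1.11.5), barcode copies kept, sets of libraries that share barcodes, and leaving out each library; the sinusoidal subgate, the libraries that share few barcodes, leaving out the largest cell and likeness without control 4 were added after seeing the data.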

Additional observations from a re-analysis of the deposited data

Results flagged for a closer look

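Among 28 groups of 4 libraries, 8 held a value far from the other 3. Chance gives about 1 in 20 for continuous values, but 4 of the 8 had the other 3 libraries at 0, where any UMI in the fourth is far from them, so that rate does not apply to these sparse counts. Over all cells, Igfbp1 stood at 6.06 CPM in HFHC 3 and 0 in the other HFHC libraries, and HFHC 3 was the single HFHC library with hepatocytes. Igfbp2 stood at 16.9 CPM in control 2 and 0 in the other control libraries, and control 2 held 671 hepatocytes, with at most 3 in another control library. Igfbp6 stood at 3110 CPM in control 1 with the next control library at 295 CPM, and 14 of the 55 cells of control 1 were in the mesothelial gate.

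The library labelled control 4, whose sex-linked transcripts go against its label and which alone had lymphatic cells in number, stood apart 4 times. Its Igfbp3 was 128 CPM over all cells with the next control library at 10.8 CPM, 155 CPM in the endothelial gate with the next at 2.48 CPM, and 24.7 CPM in the sinusoidal subgate (2 UMIs) with the others at 0. Its Igf1 in the endothelial gate was 14.5 CPM (3 UMIs) with the next control library at 1.24 CPM. In the sinusoidal subgate control 3 had 1.27 CPM of Igf1, which is 1 UMI, and the other control libraries 0.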

How the results depend on the processing

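No member passed a diet test over all cells or endothelial cells under any alternative run, or in the main fit of sinusoidal cells. The signs below are thus of changes that were not called. No statement is made for the members under alternatives of the sinusoidal fit. Over all cells, within control 3, control 4 and HFHC 4 the log2 fold changes of Igf1, Igfbp4 and Igfbp7 were −2.67, 0.29 and 0.21. Those of Igfbp5 and Igfbp6 were 0.0557 and 0.0566 with barcode copies kept. Leaving out each library gave −1.74 to 1.06 for Igfbp5, −1.70 to 2.35 for Igfbp6 and −1.71 to 0.17 for Igfbp7. In the endothelial gate Igfbp4 had −0.0263 under DESeq2, −0.0322 under its size factors, −0.0165 with at least 4 markers, −0.0144 with no filter, −0.10 in sinusoidal cells and −0.27 within the barcode-sharing libraries. Igfbp5 had 0.0124 under DESeq2 and 1.79 within the barcode-sharing libraries, and Igfbp7 had 0.14 in sinusoidal cells and 0.18 within the libraries that share few barcodes. Leaving out each library gave −0.26 to 0.12 for Igfbp4, −1.36 to 2.01 for Igfbp5 and −1.63 to 0.31 for Igfbp7. Replicate numbers do not pair the mice (correlations of same-numbered deviations 0.55, −0.21, −0.50 and 0.21, and 1 of 4 HFHC libraries was closest to its own number); with the replicate block, Igfbp5 had 0.23 and Igfbp6 0.53 over all cells, Igfbp5 had 1.07 in endothelial cells, and 0 and 9 genes were called. Called over all cells were 0 genes, but 1 within the libraries that share few barcodes. In the endothelial gate 2 were called, against 1 with copies kept, 9 with no filter, 12 within the barcode-sharing libraries, 7 within the others, 12 in sinusoidal cells and 0 to 5 without 1 library, the 0 being without HFHC 4. The cause was not tested.

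Mean levels by gate moved by more than the spread between libraries in 17 of 200 comparisons, all in the mesothelial and hepatocyte gates, where 2 libraries give the spread; Igfbp5 and Igfbp6 in mesothelial cells were 3047 and 3400 CPM with classes from clustering, which took in 69 cells. With copies kept, control 1 gained hepatocytes, 462 of 7013 genes, Igfbp7 among them, were called between diets in that gate and 0 of 827 in the mesothelial gate. Other tests of these gates were not run, since each had 1 library per diet. Likeness to Igfbp3 was lost without control 4 (r = −0.1476 for Mmrn1 and −0.008574 for Reln). Depth limits Igfbp1, Igfbp2 and Igfbp3, with 24, 77 and 55 UMIs.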

Other observations

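Of the 11 other genes with an IGFBP-type domain, the 4 with most UMIs were Crim1, Esm1, Cyr61 and Ctgf. Crim1, a membrane protein that binds bone morphogenetic proteins, had 363 CPM in mesothelial cells of HFHC 1 and 211 CPM in those of control 1, with 201 CPM in endothelial cells pooled and 2.94 CPM in hepatocytes. Cyr61 and Ctgf, matricellular targets of the YAP pathway, had 478 and 245 CPM in cholangiocytes pooled, beside 39.0 and 62.2 CPM in endothelial cells, and Cyr61 also had 252 CPM in mesothelial cells and 287 CPM in the 9 fibroblasts. Esm1 had 464 of its 479 UMIs in endothelial cells. Each of these 4 genes was near 0 in hepatocytes, with at most 9 UMIs in 1357 cells.

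Of the signal transduction genes, Akt1, a kinase that carries the signal of the receptor, had 17.3 CPM in hepatocytes and 67.6 CPM in endothelial cells. Pik3r1, a subunit of the kinase that starts it, had 30.1 CPM in hepatocytes and 47.7 CPM in endothelial cells. Of the growth hormone axis, Stat5b, the factor that growth hormone activates, had 22.9 CPM in hepatocytes and 35.7 CPM in endothelial cells, and Jak2 had 11.1 and 24.5 CPM, so that Ghr alone among these 3 genes was higher in hepatocytes.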
